A study of Homo sapiens with 8 samples.

Results

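The effect of METTL14 knockdown on nascent transcription was examined in senescent IMR90 cells, primary human lung embryonic fibroblasts that carry an oncogenic RAS fused to the estrogen receptor (ER:RAS). The comparison sets senescent cells with shMETTL14 against senescent cells with shControl, and its members are the gene rows outside ribosomal RNA, 27924 of 27945 rows, of which 12752 passed the filter on low counts and were tested. The study held 8 fastGRO-seq libraries in 4 groups of 2: control cells, and cells in which 100 nM 4-hydroxytamoxifen (4-OHT) had switched on RAS and which were harvested on day 6 with shControl, shMETTL3 or shMETTL14. In this assay nuclei are isolated, engaged polymerases add a labeled nucleotide to their RNA and the labeled RNA alone is sequenced, so that counts over a gene body follow ongoing transcription.

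Each knockdown rested on 1 short hairpin delivered by lentivirus under puromycin selection, and the control cells are labeled without a hairpin, so that in a comparison with them senescence and infection cannot be told apart. All cells carried ER:RAS and were grown in low oxygen. The labels do not say whether the libraries of a group came from separate cultures. The paper calls its fastGRO-seq experiments biologically independent, in a figure legend on senescent relative to proliferating cells. That legend does not mention the knockdowns. The p-values measure the spread between the libraries sequenced here only. A bulk library cannot tell fewer cells of a type from less RNA per cell.

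METTL14 and METTL3 form the heterodimer that methylates adenosine in RNA (m6A), with METTL3 as the catalytic subunit and METTL14 as the RNA-binding scaffold. Cells that enter oncogene-induced senescence stop dividing under p53 and the CDK inhibitor p21 and secrete chemokines, interleukins, proteases and matrix proteins, the senescence-associated secretory phenotype (SASP). Much of the inflammatory SASP is driven by NF-kappaB, which also switches on its own inhibitors, such as NFKBIA and TNFAIP3, and so limits itself.

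Outside ribosomal RNA the 4 libraries compared held 1513930 and 1577177 counts with shControl against 1649936 and 1581261 with shMETTL14. METTL14 itself had 24 and 28 counts with shControl against 18 and 14 with shMETTL14. This difference of -0.86 on the log2 scale (standard error 0.34) did not pass the threshold (edgeR, adjusted p = 0.076), and METTL3 had 77 and 47 against 73 and 56. These counts follow ongoing transcription and do not measure mature METTL14 RNA or protein. The paper cites a western blot for its knockdowns in senescent cells. All 11 fibroblast markers had counts in every library, but their summed normalized count was 10931 and 12790 with shControl against 7637 and 8689 with shMETTL14, and 8 of 10 tested fibroblast markers were called lower. Summed counts of the leukocyte and endothelial marker lists lay between 61 and 79 in each of these 4 libraries. Of the 2 endothelial receptor genes tested, TEK was called lower, with 37 and 48 counts against 13 and 26, and TIE1 higher, with 7 and 6 against 41 and 44. Those of the 11 epithelial markers went from 51 and 32 to 90 and 69, with the keratin KRT18 at 25 and 15 against 43 and 32, although none of the 3 tested was called. Those of the 8 neural markers went from 223 and 221 to 489 and 398, nearly all from the tubulin gene TUBB3 (207 and 195 against 470 and 381). The part of these shifts in the results was not tested. Genes that overlap share reads: where a gene lay inside another that is read in the other direction, the enclosing gene held at least as many counts in all 8 libraries in 60 of 61 pairs. The paper added Drosophila nuclei as a spike-in. No spike-in scale was applied to the counts used here, so each fold change is set against the rest of its library.

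After METTL14 knockdown 1531 genes were lower, 12% of those tested, and 1172 were higher, 9.19%, at a Benjamini-Hochberg adjusted p below 0.05 in edgeR's quasi-likelihood test. Fold changes are given on the log2 scale as shMETTL14 over shControl after TMM normalization, with the standard error. The median change was -0.98 over the lower and 0.90 over the higher genes, and 749 lower and 514 higher genes changed by at least 1 on the log2 scale. The shMETTL14 and shControl libraries did not overlap in normalized counts in 1530 of the lower and 1172 of the higher genes. This also held in 8212 of the 12752 genes tested, so such separation does not set a called gene apart. With library size alone, without TMM, 1243 genes were lower and 1628 higher, and the median over all genes was 0.0972 against -0.00. The shMETTL14 libraries were not equally far from shControl: replicate 1 lay below replicate 2 in 71.9% of the lower genes and in 29.6% of the higher genes, against 50% of all genes tested. Without shMETTL14 replicate 1, 716 genes were lower and 502 higher. Without replicate 2 they were 1171 and 813. Without shControl replicate 1 they were 930 and 558, and without shControl replicate 2 they were 881 and 512. In fits without 1 library, its partner is assumed to vary like the other groups.

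Over all genes tested, the share called was larger among long genes, but this was not so among genes with many counts. Of genes up to 10 kb, 6.69% were lower and 8.83% higher, and of genes over 200 kb, 20.1% were lower and 15.8% higher. Among genes that averaged 100 counts or more, the same classes gave 18.2% lower and 20.2% higher, and 21.1% lower and 15.8% higher, and genes of 50 to 200 kb gave 19.1% and 12.9%. Of the 3602 tested genes that averaged 100 counts or more, 728 were lower and 519 higher, larger shares than over all genes. The gene lists below were not matched for count, so a list with many counts can exceed the share over all genes. Protein-coding genes made up 1422 of the lower and 1026 of the higher genes. Of 57 small nucleolar RNA genes tested, which guide the modification of ribosomal RNA and lie mostly within introns of other genes, 1 was lower and 14 were higher.

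Of 10 tested chemokine genes of the SASP 6 were lower and 1 was higher, with a median of -2.49, against 12% lower, 9.19% higher and a median of -0.00 over all genes tested, and the 6 were lower under every alternative whose filter kept them. Wherever every alternative is named, those that dropped a gene are not counted for it. The neutrophil-attracting CXC genes lie side by side on chromosome 4, from CXCL8 at hg19 chr4:74606223-74609433 to CXCL2 at chr4:74962754-74964997. CXCL8 had 38 and 41 counts in control cells, 4396 and 4004 with shControl and 1104 and 911 with shMETTL14, a change of -2.23 (SE 0.15, edgeR adjusted p = 2.0e-11). CXCL5 went from 2402 and 2164 counts to 37 and 92, a change of -5.30 (SE 0.23, edgeR adjusted p = 1.2e-15). Its lower library was replicate 1, and the change was -6.14 without replicate 2. CXCL1 had 844 and 746 counts against 131 and 102 (-2.94, SE 0.16), and CXCL3 284 and 254 against 48 and 41 (-2.76, SE 0.23). CXCL6 had 44 and 35 counts with shControl and 1 in each shMETTL14 library. In all 5 genes the shMETTL14 libraries lay below both shControl libraries and, apart from CXCL6, above both control libraries. The interferon-induced CXCL10, which lies wholly inside ART3 and shares its reads, had 27 and 23 counts against 1 and 4 (edgeR adjusted p = 0.00024).

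CXCL2, the last gene of this cluster, did not follow: it had 60 and 53 counts with shControl against 100 and 105 with shMETTL14 (0.70, SE 0.29, edgeR adjusted p = 0.086). CCL20, which attracts cells that bear CCR6, had 104 and 99 counts against 243 and 176 and was called higher (0.88, SE 0.18, edgeR adjusted p = 0.00088), although not without shMETTL14 replicate 1. Both genes were at 4 counts or below in control cells.

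Promoters are shown for 2 chemokines that fell and 2 NF-kappaB inhibitors that rose, because the same short motif stands in both groups. They run from 250 bases before to 50 after the RefSeq start on GRCh38.p14, 5′ to 3′ along the gene, with matches to the NF-kappaB motif in capitals. CXCL1 (chr4:73869143-73869442, plus strand) and CXCL5 (chr4:73998628-73998927, minus strand) each hold a pair of overlapping matches, and NFKBIA (chr14:35404700-35404999, minus strand) holds 1. TNFAIP3 (chr6:137867009-137867308, plus strand) holds 2 separate matches.
CXCL1: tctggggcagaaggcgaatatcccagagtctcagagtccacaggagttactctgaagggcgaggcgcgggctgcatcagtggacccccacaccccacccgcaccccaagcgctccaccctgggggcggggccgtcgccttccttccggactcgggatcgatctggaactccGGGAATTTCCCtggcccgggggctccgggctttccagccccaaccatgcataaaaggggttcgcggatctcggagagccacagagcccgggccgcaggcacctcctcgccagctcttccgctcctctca
CXCL5: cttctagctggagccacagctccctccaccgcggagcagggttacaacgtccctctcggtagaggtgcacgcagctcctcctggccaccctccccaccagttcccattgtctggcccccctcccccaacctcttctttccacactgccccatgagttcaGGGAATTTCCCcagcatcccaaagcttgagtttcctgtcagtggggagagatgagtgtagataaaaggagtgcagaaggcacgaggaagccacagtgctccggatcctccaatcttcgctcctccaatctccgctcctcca
NFKBIA: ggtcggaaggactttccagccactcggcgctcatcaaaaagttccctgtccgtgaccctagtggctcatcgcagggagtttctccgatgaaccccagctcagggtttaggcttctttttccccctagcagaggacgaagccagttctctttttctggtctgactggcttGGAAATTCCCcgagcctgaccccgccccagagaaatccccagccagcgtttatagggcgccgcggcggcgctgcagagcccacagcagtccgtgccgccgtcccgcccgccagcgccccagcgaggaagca
TNFAIP3: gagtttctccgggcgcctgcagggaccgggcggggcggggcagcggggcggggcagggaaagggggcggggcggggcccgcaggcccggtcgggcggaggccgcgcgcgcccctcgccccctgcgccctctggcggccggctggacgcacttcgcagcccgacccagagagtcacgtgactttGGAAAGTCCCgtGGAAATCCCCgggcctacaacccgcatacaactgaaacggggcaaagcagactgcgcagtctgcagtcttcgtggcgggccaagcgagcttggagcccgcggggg
The first match began 79 bases before the start in CXCL1, 91 in CXCL5, 81 in NFKBIA and 67 in TNFAIP3. On either strand the motif was found in 7 of 9 chemokine promoters (77.8%), of which 5 were lower and 1 was higher, and in 11 of 30 promoters of the NF-kappaB list (36.7%), of which 7 were higher and 1 was lower. Of the 19 without it 6 were higher and 1 was lower. The motif was found in 6.21% of lower and 8.24% of higher genes with a promoter in the table, against 6.34% of promoters of all tested genes and 5.72% of all 27305 promoters. A match describes the letters of this window and not a bound site.

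Interleukins and colony-stimulating factors moved in both directions. Of 16 tested 5 were lower and 6 higher, with a median of 0.68. IL1B, the fever cytokine that feeds the SASP back onto itself, had 2161 and 2189 counts with shControl against 459 and 356 with shMETTL14 (-2.58, SE 0.15, edgeR adjusted p = 8.8e-13). IL11, a fibrogenic cytokine of the gp130 family, had 237 in each shControl library against 112 and 73 (-1.52, SE 0.19). IL1A had 214 and 216 counts against 160 and 151 (-0.63, SE 0.16, edgeR adjusted p = 0.0065), and was called without shControl replicate 2 but not without any other of the 4 libraries. The remaining lower genes, IL6 and CSF2, were chosen after their values were seen: IL6 had 203 and 179 counts against 136 and 95 (-0.89, SE 0.19), and CSF2, which encodes the growth factor GM-CSF, had 73 and 78 against 6 and 8 (-3.57, SE 0.38). Both lay below shControl in each shMETTL14 library, as did 1530 of all 1531 lower genes.

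Among the higher genes CSF1, the macrophage growth factor, had 101 and 89 counts in control cells, 25 and 45 with shControl and 106 and 98 with shMETTL14 (1.38, SE 0.26, edgeR adjusted p = 0.00025), and was called in every alternative. Other higher genes had few counts with shControl. IL23A, a subunit of the cytokine that sustains Th17 cells, had 2 counts in each shControl library and 51 and 22 with shMETTL14, and IL36B had 1 in each against 25 and 17. TSLP, an epithelial alarmin, had 6 in each against 34 and 28 (2.19, SE 0.48, edgeR adjusted p = 0.0014). CSF3, the granulocyte growth factor, had no count in control cells, 289 and 254 with shControl and 374 and 296 with shMETTL14 (0.14, SE 0.17, edgeR adjusted p = 0.62). The number of lower genes was 3 without shControl replicate 1 or without shMETTL14 replicate 2, and the number of higher genes 4 without shControl replicate 2.

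Of 15 tested metalloproteinases and their inhibitors 8 were lower and 2 higher, with a median of -0.39. MMP10, a stromelysin, had 233 and 223 counts with shControl against 8 and 5 with shMETTL14 (-5.27, SE 0.31, edgeR adjusted p = 1.4e-12). The related MMP3 had 5581 and 5385 against 604 and 505 (-3.47, SE 0.15, edgeR adjusted p = 1.2e-15). Both genes were nearly silent in control cells, at 3 counts or below in each library. The collagenase gene MMP1 had 9228 and 8617 against 6076 and 5348 (-0.81, SE 0.14) and lies wholly within WTAPP1. The gelatinase MMP2 and the membrane-bound MMP14 fell by 1.07 and 1.05. TIMP3, an inhibitor of these enzymes that lies inside SYN3, had 215 and 300 counts with shControl against 841 and 703 with shMETTL14 (1.42, SE 0.15, edgeR adjusted p = 3.7e-08). The other higher gene, TIMP1, was not called without 3 of the 4 libraries in turn (0.53).

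Among prostaglandin and leukotriene genes, 6 of 18 were lower and 1 was higher, with a median of -0.62, or -0.50 with genes at or under 3 counts in a group set to their bound. PTGS2, the inducible cyclooxygenase COX-2, had 1434 and 1470 counts with shControl against 208 and 180 with shMETTL14 (-3.07, SE 0.15, edgeR adjusted p = 1.5e-14). PTGS1, the constitutive cyclooxygenase, had 61 and 89 against 20 and 15 (-2.25, SE 0.27). Unlike PTGS2 it had been higher in control cells, at 238 and 231 counts. TBXAS1, thromboxane synthase, had 201 and 215 counts against 52 and 126 (-1.38, SE 0.23), and -2.20 without shMETTL14 replicate 2. ABCC4, an exporter of prostaglandins, had 1179 and 1375 against 468 and 688 (-1.30, SE 0.16). The number of lower genes was 4 without shControl replicate 1, and the higher gene was called neither with DESeq2 nor in any fit without 1 of the 4 libraries.

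**Figure D1:**
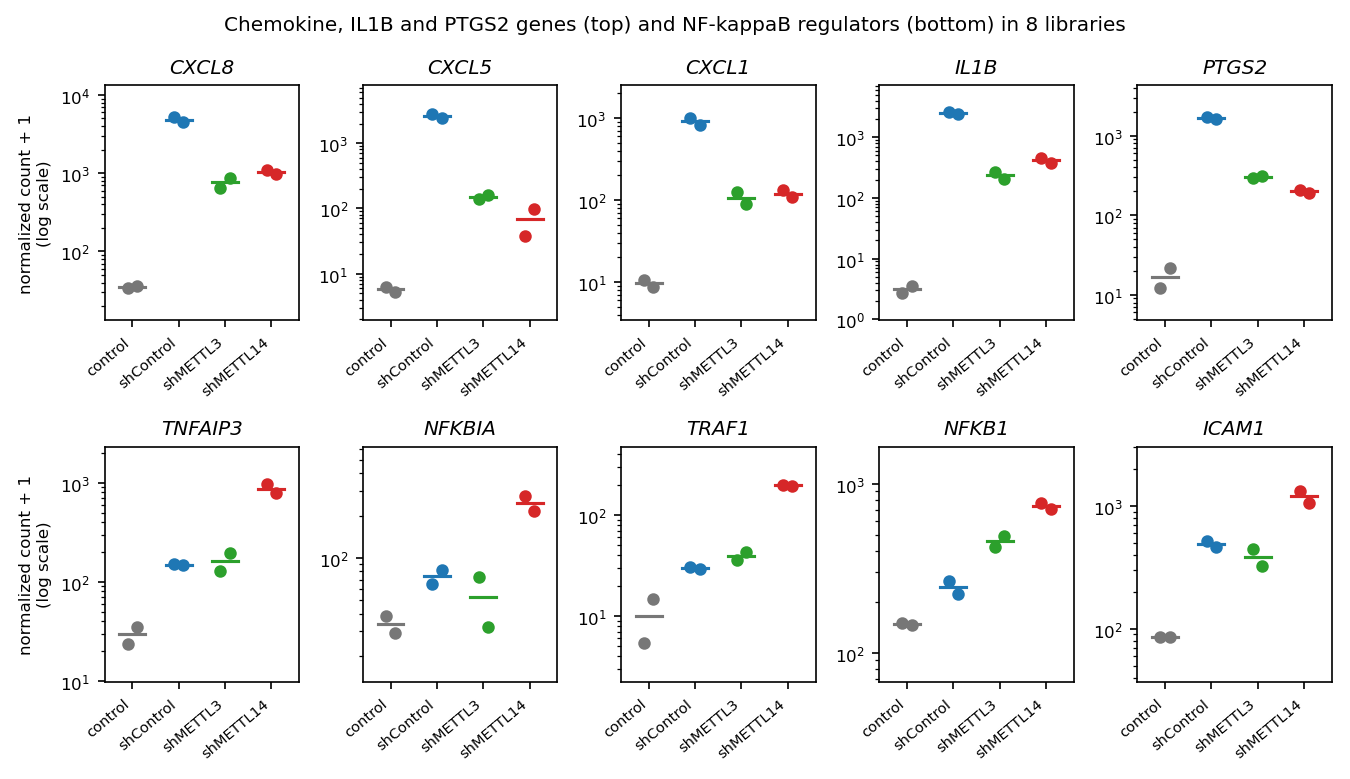
Normalized counts plus 1 on a log scale in all 8 libraries (points) with the group mean (line) for CXCL8, CXCL5, CXCL1, IL1B and PTGS2 (top) and for TNFAIP3, NFKBIA, TRAF1, NFKB1 and ICAM1 (bottom). In the top row both shMETTL14 libraries lie below both shControl libraries, and in the bottom row above them.

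Of 34 tested genes of the NF-kappaB pathway itself, its subunits, regulators and feedback genes, 15 were higher, 2 were lower and 17 were not called, with a median of 0.48, and 9 of the higher genes held under every alternative. TNFAIP3, the ubiquitin-editing inhibitor A20 (hg19 chr6:138188325-138204451), had 126 and 132 counts with shControl against 964 and 741 with shMETTL14 (2.56, SE 0.17, edgeR adjusted p = 1.1e-11). NFKBIA, the inhibitor that holds NF-kappaB in the cytoplasm (hg19 chr14:35870716-35873960), had 54 and 73 against 277 and 203 (1.75, SE 0.23, edgeR adjusted p = 2.2e-06). Control cells had 26 and 40 counts of TNFAIP3 and 43 and 33 of NFKBIA, below every shMETTL14 library.

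TRAF1, an adaptor of TNF receptors, had 25 counts in each shControl library and 198 and 183 with shMETTL14 (2.76, SE 0.25, edgeR adjusted p = 2.6e-09). NFKB1, the p105 and p50 subunit gene, had 223 and 198 against 763 and 670 (1.60, SE 0.14), and ICAM1, the leukocyte adhesion receptor, 436 and 415 against 1325 and 1005 (1.29, SE 0.15). TRAF3, an inhibitor of the noncanonical pathway, had 167 and 211 against 350 and 342 (0.71, SE 0.14). In each of these genes the groups did not overlap, as in all 1172 higher genes. The other subunits RELB (1.70), REL (1.15), RELA (0.89) and NFKB2 (0.84), named after their values were seen, were also called higher. The opposite direction was seen in IRAK3, which restrains Toll-like receptor signaling, with 75 and 50 counts against 19 and 30 (-1.51, SE 0.30), and SOD2, a target of NF-kappaB, was not called (-0.28, SE 0.13). The higher genes numbered 10 without shControl replicate 1, 11 without shControl replicate 2, 9 without shMETTL14 replicate 1 and 9 with DESeq2. The other gene called lower, TNIP3, had 10 and 15 counts against 1 and 5 and was not called in any fit without 1 of the 4 libraries.

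Immediate-early genes and feedback inhibitors of ERK signaling, the pathway that RAS feeds, rose more often than they fell: of 43 tested, 20 were higher and 3 lower, with a median of 0.50. EGR1, a zinc-finger factor induced within minutes of a stimulus, had 154 and 174 counts with shControl against 617 and 495 with shMETTL14 (1.60, SE 0.16, edgeR adjusted p = 3.1e-08). DUSP1, a nuclear phosphatase of MAP kinases, had 174 and 184 against 628 and 504 (1.5, SE 0.14, edgeR adjusted p = 1.0e-08). KLF6 had 189 and 207 against 528 and 419 (1.09, SE 0.14). DUSP5, which is specific to ERK in the nucleus, had 314 and 305 against 634 and 506 (0.72, SE 0.14). In these genes both shMETTL14 libraries were above all shControl and control libraries.

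DUSP6, the cytoplasmic ERK phosphatase, moved the other way: it had 55 and 57 counts in control cells, 416 and 435 with shControl and 177 and 183 with shMETTL14 (-1.40, SE 0.14, edgeR adjusted p = 2.1e-08). ETV1, a PEA3-type factor, and SPRED1, a RAS inhibitor, were also lower (-1.0 and -0.69), although neither was called without shMETTL14 replicate 1, nor SPRED1 without shControl replicate 1. PHLDA1 and ETV5 were not called (0.12 and 0.16). The higher genes numbered 11 without shControl replicate 2, 12 without shMETTL14 replicate 1 and 9 with DESeq2.

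**Figure D2:**
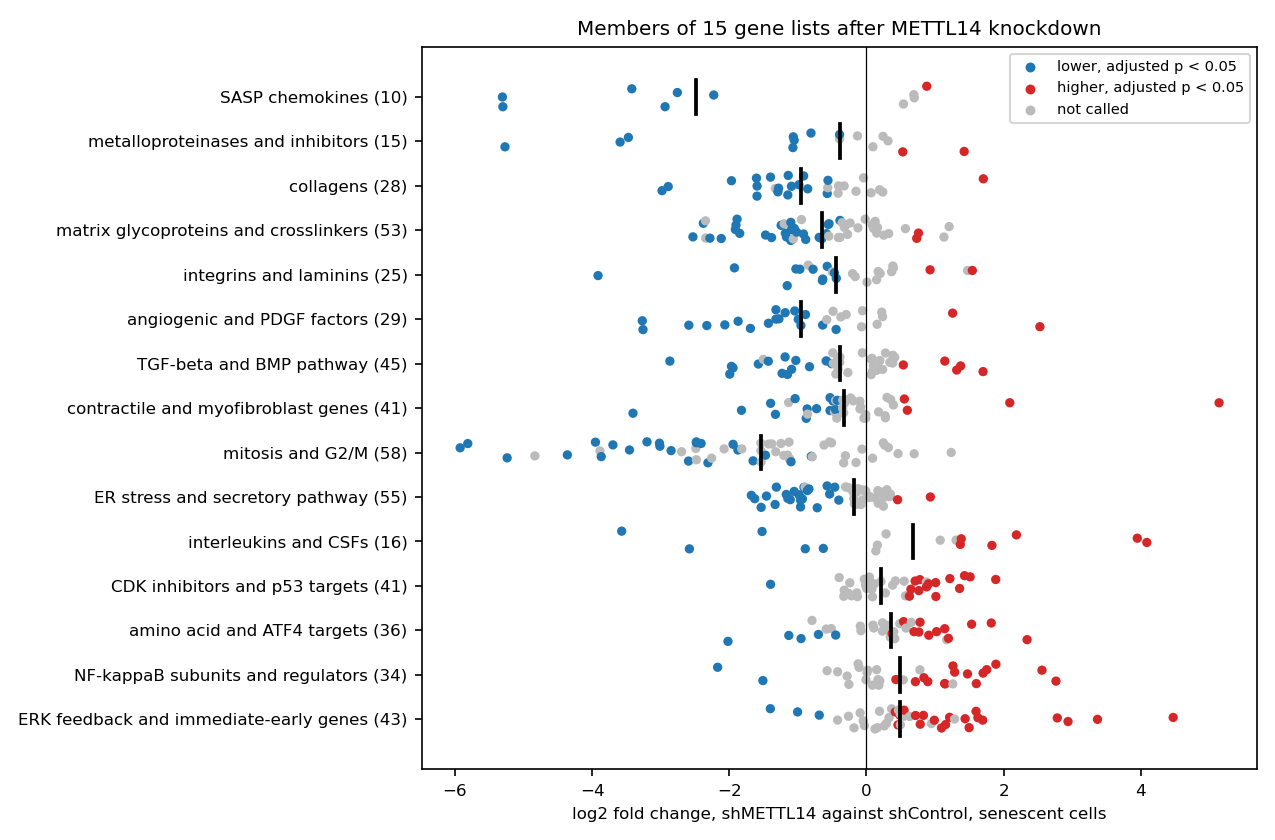
Fitted log2 fold changes (shMETTL14 against shControl, senescent cells) of the tested members of 15 gene lists, with the number tested in brackets and the list median as a bar. Blue points were called lower, red points higher and gray points in neither direction, and the medians run from -2.49 for the chemokines to 0.68 for the interleukins and colony-stimulating factors.

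Among genes of the extracellular matrix, collagens were lower in 17 of 28 tested genes and higher in 1, with a median of -0.95. COL6A3, a chain of the beaded collagen VI network, had 8302 and 8735 counts with shControl against 2886 and 3367 with shMETTL14 (-1.60, SE 0.15, edgeR adjusted p = 3.7e-09). Its partner chains COL6A2 and COL6A1 fell by 1.09 and 0.86. COL12A1, which decorates fibrils, had 1587 and 1941 counts against 659 and 829 (-1.40, SE 0.15). The fibrillar collagen gene COL1A2 had 7541 and 7377 counts in control cells, 1637 and 2303 with shControl and 700 and 1095 with shMETTL14 (-1.28, SE 0.18), and COL3A1 3073 and 3087, 505 and 801, and 178 and 300 in the same order (-1.60, SE 0.21). Both genes were lower with shControl than in control cells and lower again with shMETTL14, with no overlap between these groups. The shMETTL14 and shControl libraries did not overlap in 1530 of the 1531 lower genes either. COL1A1 had 2099 and 2960 against 1763 and 2046 (-0.56, SE 0.16, edgeR adjusted p = 0.014) and was not called without shControl replicate 2 or without shMETTL14 replicate 1. COL5A3, a minor fibrillar chain, was the single collagen called higher, with 26 and 11 counts against 77 and 59 (1.70, SE 0.33), and 2.50 without shControl replicate 1.

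Of 53 matrix glycoproteins, proteoglycans and crosslinking enzymes 26 were lower and 2 higher, with a median of -0.65. THBS1, an adhesive glycoprotein that activates latent TGF-beta, had 1375 and 1532 counts with shControl against 292 and 565 with shMETTL14 (-1.91, SE 0.19, edgeR adjusted p = 2.8e-08), and -2.51 without shMETTL14 replicate 2. TGFBI had 2534 and 2602 against 1272 and 1491 (-1.05, SE 0.15), and the latent TGF-beta carrier LTBP1 1338 and 1407 against 748 and 872 (-0.92, SE 0.14). FBN1, the fibrillin of elastic microfibrils, had 1099 and 1179 against 775 and 844 (-0.65, SE 0.14). SPARC and TNC were not called (0.16 and -0.32). The 2 higher genes were the matricellular CTGF, with 186 and 219 counts against 412 and 341 (0.73, SE 0.14), and CYR61, with 137 and 146 against 295 and 241 (0.76, SE 0.15). Both are known targets of the YAP coactivator.

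Of 25 integrins, receptors for the matrix, and laminins of the basement membrane 11 were lower and 2 higher, with a median of -0.44. ITGB5, a partner in a vitronectin receptor, had 455 and 454 counts with shControl against 191 and 305 with shMETTL14 (-1.03, SE 0.17). LAMB1, a chain of basement membrane laminin, had 916 and 902 against 517 and 665 (-0.78, SE 0.15), and ITGB1, the common beta subunit, 5004 and 4902 against 3793 and 3318 (-0.64, SE 0.14). ITGA3 was not called (0.17). The number of lower genes was 7 without shControl replicate 1 and 7 without shMETTL14 replicate 1, and that of higher genes 1 without shControl replicate 1 and 0 without shControl replicate 2 or shMETTL14 replicate 1. Of 11 genes of hyaluronan metabolism 4 were lower and 1 was higher, the latter not called without shControl replicate 2 or shMETTL14 replicate 1. CEMIP, which depolymerizes hyaluronan, had 218 and 282 counts against 10 and 32 (-3.72, SE 0.26, edgeR adjusted p = 2.0e-11), with -3.08 without shMETTL14 replicate 1 and -4.82 without replicate 2. The hyaluronan receptor CD44 had 4688 and 4773 against 2264 and 2755 (-1.07, SE 0.14).

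Angiogenic, insulin-like growth factor binding and PDGF genes were lower in 18 of 29 and higher in 2, with a median of -0.96. IGFBP5, a secreted binding protein of insulin-like growth factors, had 6156 and 6215 counts with shControl against 1194 and 1554 with shMETTL14 (-2.33, SE 0.16, edgeR adjusted p = 1.1e-11), and IGFBP4 had 778 and 724 against 214 and 245 (-1.87, SE 0.17). VEGFC, the lymphangiogenic factor, had 471 and 538 counts in control cells, 2142 and 2044 with shControl and 918 and 958 with shMETTL14 (-1.32, SE 0.15). PDGFRA, the PDGF receptor of mesenchymal cells, had 658 and 785 against 246 and 396 (-1.32, SE 0.17), while PDGFC was not called (-0.06). In the 4 genes named that fell, no shMETTL14 library reached a shControl library, as in 1530 of all 1531 lower genes. Of the endothelial receptors, TIE1 was higher (2.53, SE 0.47) and was the single higher gene called in every alternative. TEK was lower (-1.28, SE 0.32, edgeR adjusted p = 0.0047) but not called in 2 of 15 alternatives. The change of TEK was -0.83 without shMETTL14 replicate 1 and -1.90 without shMETTL14 replicate 2.

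The TGF-beta and BMP pathway was lower in 14 of 45 genes and higher in 5, with a median of -0.39. Among the ligands, BMP2 had 31 and 23 counts in control cells, 518 and 489 with shControl and 190 and 188 with shMETTL14 (-1.58, SE 0.14, edgeR adjusted p = 3.2e-09). INHBA, which encodes the activin A chain, had 1624 and 1586 against 879 and 808 (-1.09, SE 0.14). Among extracellular antagonists, GREM1 fell (-1.23, SE 0.15) and FSTL3 rose from 12 and 19 counts to 58 and 55 (1.70, SE 0.35). The receptor gene BMPR1B was higher (1.14, SE 0.17), and TGFBR2 and SMAD3 were not called (0.08 and 0.37). The lower genes numbered 9 without shControl replicate 2 and 9 without shMETTL14 replicate 1, and the higher genes 2 without either shControl library and 3 without shMETTL14 replicate 1.

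Contractile genes were lower in 13 of 41 and higher in 4, with a median of -0.33. MYLK, the kinase of myosin light chain, had 1191 and 1578 counts with shControl against 581 and 647 with shMETTL14 (-1.33, SE 0.15), and the tropomyosin gene TPM1 400 and 411 against 242 and 251 (-0.88, SE 0.15). FLNC, the muscle filamin, had 911 and 996 against 5093 and 4001 (2.09, SE 0.15, edgeR adjusted p = 3.4e-11) and shares reads with FLNC-AS1 on the opposite strand (2.07). ACTB and VIM were not called (0.18 and -0.01). The lower genes numbered 8 without shControl replicate 1, 6 without shControl replicate 2 and 7 without shMETTL14 replicate 1, and the higher genes 2 without shControl replicate 2 or shMETTL14 replicate 1 and 2 with DESeq2.

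Genes of mitosis were lower in 23 of 58 and higher in none, with a median of -1.54, or -1.13 with the 27 genes at or under 3 counts in a group set to their bound. MKI67, the proliferation antigen, had 224 and 201 counts in control cells, 25 and 53 with shControl and 1 and 3 with shMETTL14. CENPF, a kinetochore protein, had 208 and 223 counts in control cells, 26 and 55 with shControl and 8 and 10 with shMETTL14 (-2.31, SE 0.37, edgeR adjusted p = 4.0e-05). In both genes shControl replicate 1 had fewer counts than replicate 2 and both shMETTL14 libraries fewer still. The number of lower genes was 10 without shControl replicate 2, 14 without shMETTL14 replicate 1, 11 without shMETTL14 replicate 2 and 12 with DESeq2, and 6 held under every alternative. The CHR element (TTTGAA, on either strand) stood in 34 of 49 promoters of this list (69.4%), against 10.4% of the promoters of tested genes and 15.4% of all promoters. Of 39 genes of DNA replication 6 were lower, with a median of -0.41. This share of 15.4% stood near the 12% of all genes tested. CDC45, a helicase component, had 8 and 9 counts against none in either shMETTL14 library, at least 3.16-fold lower with 3 counts per library as the floor, and the primase subunit PRIM2 252 and 269 against 141 and 148 (-1.01, SE 0.16). The number was 2 without shControl replicate 2, 3 without either shMETTL14 library and 1 with DESeq2.

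CDK inhibitors and p53 targets were higher in 14 of 41 and lower in 1, with a median of 0.21. CDKN1A, the CDK inhibitor p21, had 459 and 426 counts in control cells, 726 and 744 with shControl and 1817 and 1498 with shMETTL14 (1.01, SE 0.14, edgeR adjusted p = 5.8e-06). GADD45A, which acts in cell cycle arrest after DNA damage, had 55 and 71 against 184 and 177 (1.36, SE 0.22). MDM2, the ubiquitin ligase of p53, had 616 and 658 in control cells, 386 and 362 with shControl and 756 and 780 with shMETTL14 (0.88, SE 0.15). With DESeq2 8 genes were higher and 0 lower. In CDKN1A, GADD45A and MDM2 both shMETTL14 libraries were above all shControl and control libraries.

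Of 55 genes of endoplasmic reticulum (ER) stress and secretion 22 were lower, 2 were higher and 31 were not called, with a median of -0.18, and 17 of the lower genes held under every alternative. HSP90B1, the ER form of HSP90, had 1111 and 1137 counts with shControl against 363 and 421 with shMETTL14 (-1.68, SE 0.15, edgeR adjusted p = 2.1e-09). HSPA5, the chaperone BiP, had 767 and 846 counts in control cells, 1277 and 1352 with shControl and 579 and 588 with shMETTL14 (-1.33, SE 0.14, edgeR adjusted p = 2.7e-08), so that the shMETTL14 libraries were below the control libraries too. The disulfide isomerase PDIA6 and the lectin chaperones CALR and CANX fell by 1.05, 0.84 and 0.72. ERN1, the sensor kinase IRE1, had 135 and 132 counts against 319 and 252 and was higher (0.93, SE 0.16). It was the single higher gene called in every alternative.

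The promoters of HSPA5 and HSP90B1 are shown because they hold the ER stress response element, searched as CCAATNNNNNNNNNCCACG on both strands (capitals), as 1 match in HSPA5 (chr9:125241294-125241593, GRCh38.p14, minus strand) and 2 in HSP90B1 (chr12:103930160-103930459, GRCh38.p14, plus strand).
HSPA5: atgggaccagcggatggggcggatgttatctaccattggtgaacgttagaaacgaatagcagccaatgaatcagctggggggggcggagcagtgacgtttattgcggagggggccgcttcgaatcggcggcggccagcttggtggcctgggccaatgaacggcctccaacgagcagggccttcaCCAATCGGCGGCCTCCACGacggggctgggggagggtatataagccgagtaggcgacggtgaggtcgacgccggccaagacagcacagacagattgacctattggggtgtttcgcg
HSP90B1: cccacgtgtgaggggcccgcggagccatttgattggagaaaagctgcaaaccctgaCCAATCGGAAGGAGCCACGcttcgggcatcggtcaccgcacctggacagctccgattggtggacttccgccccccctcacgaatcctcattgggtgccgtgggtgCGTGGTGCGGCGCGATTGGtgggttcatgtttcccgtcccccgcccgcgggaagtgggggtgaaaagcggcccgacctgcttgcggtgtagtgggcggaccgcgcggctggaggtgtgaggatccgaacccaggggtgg
In HSPA5 the match began 66 bases before the start, and in HSP90B1 the matches began 194 and 89 bases before it. The element stood in 14 promoters of tested genes (0.137%), against 0.0806% of all promoters, and in 7 of 50 promoters of the ER list (14%). Of these 14 genes, HSP90B1, HSPA5, CRELD2, CALR and CANX were lower and none was higher. XBP1, another of them and the factor that ERN1 activates, was not called (0.34).

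Genes of amino acid supply and other targets of ATF4, the factor of the integrated stress response, were higher in 12 of 36 and lower in 5, with a median of 0.36. SLC7A5, the light chain of the large neutral amino acid transporter, had 57 and 56 counts with shControl against 362 and 281 with shMETTL14 (2.34, SE 0.19, edgeR adjusted p = 7.3e-10). Its heavy chain SLC3A2 had 92 and 97 against 245 and 239 (1.19, SE 0.16). SESN2, a leucine sensor that restrains mTORC1, had 55 and 48 against 224 and 184 (1.82, SE 0.20, edgeR adjusted p = 1.4e-07). In these 3 genes the shMETTL14 libraries stood above every control and shControl library. STC2 was lower (-0.95, SE 0.14) and SLC7A11, the cystine transporter, was not called (0.41). The number of higher genes was 7 without either shControl library and 4 without shMETTL14 replicate 1, and that of lower genes 2 without shControl replicate 1 or shMETTL14 replicate 1 and 3 without shControl replicate 2.

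**Figure D3:**
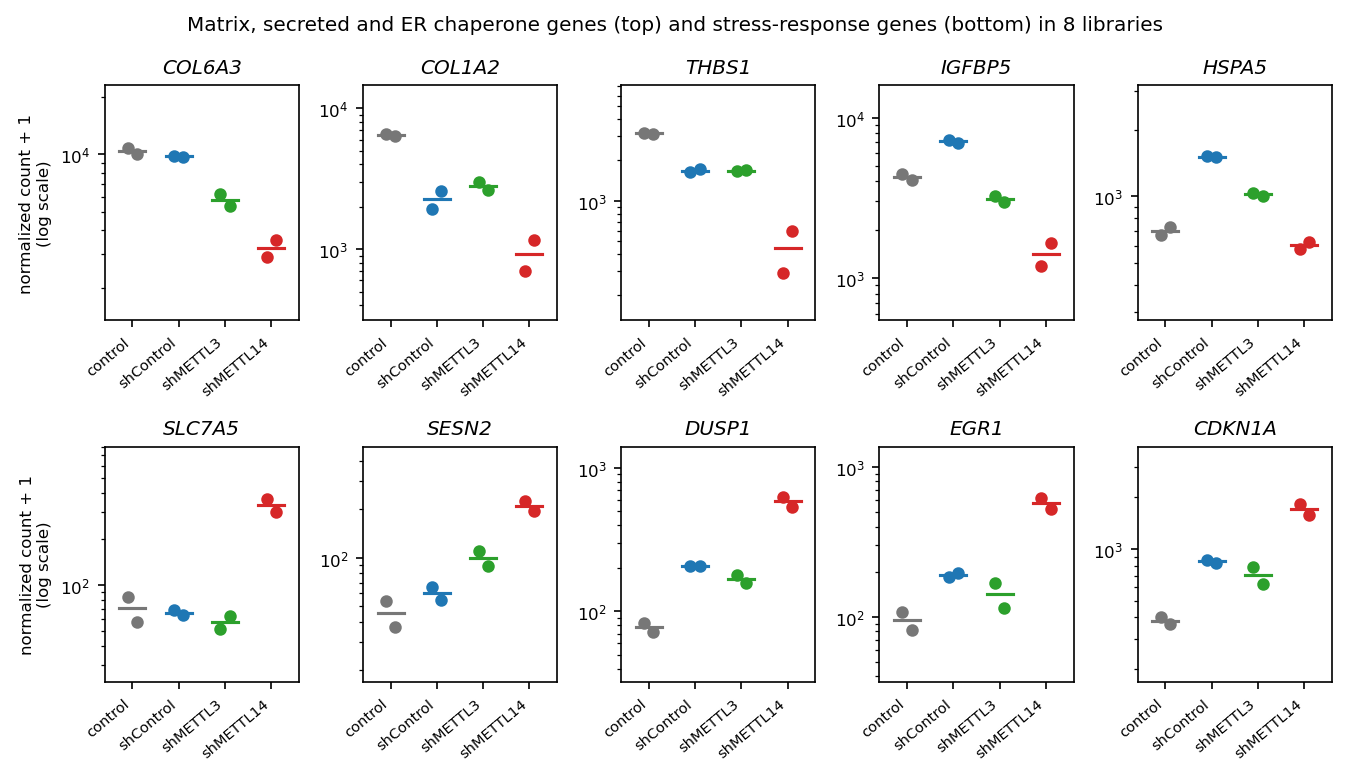
Normalized counts plus 1 on a log scale in all 8 libraries (points) with the group mean (line) for COL6A3, COL1A2, THBS1, IGFBP5 and HSPA5 (top) and for SLC7A5, SESN2, DUSP1, EGR1 and CDKN1A (bottom). Both shMETTL14 libraries are the lowest of the 8 in the top row and the highest of the 8 in the bottom row.

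Among housekeeping groups, of 78 ribosomal protein genes 13 were higher and 2 lower (median 0.28), but the count of higher genes was 30 with library size alone, 2 with DESeq2, 3 without either shControl library and 2 without shMETTL14 replicate 1. Nuclear genes of the respiratory chain were called in 8 of 58, 6 of them higher, and without shControl replicate 1, shControl replicate 2 and shMETTL14 replicate 1 the higher genes numbered 2, 0 and 1 and the lower genes 0. HNRNP and SR splicing factors were lower in 9 of 36 and higher in none (median -0.31), with 2 left without shControl replicate 2, 3 without shMETTL14 replicate 1 and 5 without either other library. Of 27 m6A writers, readers and erasers 3 were lower and 5 higher, and without shControl replicate 1, shControl replicate 2 and shMETTL14 replicate 1 the higher genes numbered 1, 0 and 1 and the lower genes 0. Without shMETTL14 replicate 2 they were 2 and 1. WTAP, the writer subunit that lies wholly inside SOD2, had 128 and 152 counts against 242 and 206 (0.52, SE 0.15, edgeR adjusted p = 0.016), and ALKBH5, an eraser, 113 and 83 against 165 and 159 (0.56, SE 0.19, edgeR adjusted p = 0.032). Each was called in only 1 of the 4 fits without 1 library. FTO, the other eraser, was not called (-0.05). In the m6A list 11.1% of genes were lower and 18.5% higher, against 12% and 9.19% of all genes tested.

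In metabolism, 7 of 37 genes of glycolysis and glucose uptake were lower and 3 higher. These shares were 18.9% and 8.11%, against 12% and 9.19% of all genes tested. HK2, a hexokinase of the first step, had 71 and 62 counts in control cells, 617 and 500 with shControl and 209 and 214 with shMETTL14 (-1.57, SE 0.15, edgeR adjusted p = 8.3e-09), and GK, glycerol kinase, had 1028 and 941 against 144 and 218 (-2.60, SE 0.17). The lower genes numbered 3 without either shControl library or without shMETTL14 replicate 1. GAPDH and PKM, later steps of the pathway, were called higher (0.56 and 0.50), but neither passed without shControl replicate 1, shControl replicate 2 or shMETTL14 replicate 1. SLC2A3, the third higher gene and a glucose transporter, was not called without shControl replicate 1 or shMETTL14 replicate 1 (0.77), and 6 genes were higher with library size alone. Cholesterol and fatty acid genes were lower in 9 of 39 and higher in 1, which was called neither with DESeq2 nor without shControl replicate 2 or either shMETTL14 library. The 9 lower genes numbered 5 without shControl replicate 1, 4 without shControl replicate 2 and 1 without shMETTL14 replicate 1.

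Among other signaling families, WNT genes were lower in 11 of 30 and higher in 2, with WNT5A, a noncanonical ligand, at 914 and 852 counts against 285 and 413 (-1.50, SE 0.16, edgeR adjusted p = 9.7e-08) and the receptor ROR1 at 81 and 138 against 301 and 257 (1.19, SE 0.18). The lower WNT genes numbered 4 without shControl replicate 2 and 5 without shMETTL14 replicate 1, with 1 higher gene in each of these fits. In the NOTCH list 5 of 17 were lower (29.4%) and 3 higher (17.6%), against 12% and 9.19% of all genes tested. RBPJ, the DNA-binding partner of NOTCH, had 1530 and 1479 counts against 599 and 740 (-1.33, SE 0.15, edgeR adjusted p = 1.6e-07). The lower NOTCH genes numbered 2, and the higher 1, without either shControl library or without shMETTL14 replicate 1. Of 27 genes of plasminogen activation, serpins and coagulation 8 were lower and 4 higher, with a median of -0.24, and without shControl replicate 1 they were 4 and 2. Without shMETTL14 replicate 1 the higher genes were 2, and without shMETTL14 replicate 2 the lower genes were 5. In the coagulation list 29.6% of genes were lower and 14.8% higher in the main fit. The protease-activated receptors F2R and F2RL1 fell by 1.76 and 1.83. The thrombin cofactor THBD had 54 and 49 counts against 141 and 128 (1.22, SE 0.22). Of 35 interferon-stimulated genes 3 were lower (8.57%) and 5 higher (14.3%), against 12% and 9.19% of all genes tested. STAT2 (-0.91) was among the lower. SP140, a nuclear body protein, was among the higher at 25 and 33 counts against 190 and 175 (2.49, SE 0.22). The higher interferon-stimulated genes numbered 3 without any 1 library.

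The remaining lists are given by their counts. Over all genes tested 12% were lower and 9.19% higher, and both shares were near these among lysosome and autophagy genes, with 11.9% and 8.47%, and among histone and DNA modifying enzymes, with 12.5% and 9.72%. Of 27 cytokine receptors 4 were lower and 1 higher, of 53 genes of RNA polymerase I and ribosome biogenesis 3 and 5, of 38 proteasome subunits 5 and 0, of 59 lysosome and autophagy genes 7 and 5, of 69 genes of CTCF, cohesin, Mediator and pause release 4 and 9, and of 72 histone and DNA modifying enzymes 9 and 7. Of 46 axon guidance genes 10 were lower and 7 higher, of 35 NRF2 antioxidant genes 6 and 4, of 11 genes of the EGF receptor family 1 and 0, and of 10 fibroblast growth factor genes 3 and 1. Without shMETTL14 replicate 1 the lower genes numbered 2 cytokine receptors, 1 gene of ribosome biogenesis, 2 proteasome subunits, 2 lysosome and autophagy genes, 1 of the CTCF list, 4 modifying enzymes and 5 axon guidance genes. Without shControl replicate 1 they were 1 in ribosome biogenesis, 3 proteasome subunits, 2 lysosome and autophagy genes and 5 axon guidance genes, and without shControl replicate 2 they were 3 proteasome subunits, 2 lysosome and autophagy genes, 5 modifying enzymes and 6 axon guidance genes. The higher cytokine receptor gene was not called in any of the 4 fits without 1 library, nor the higher fibroblast growth factor gene in 3 of them. The higher axon guidance genes numbered 4 without shControl replicate 1. The higher genes numbered 0 in ribosome biogenesis without either shControl library, 1 without shMETTL14 replicate 1 and 3 without shMETTL14 replicate 2. In the lysosome list they were 1, 2 and 1 without shControl replicate 1, shControl replicate 2 and shMETTL14 replicate 1, in the CTCF list 3, 1 and 2, and among modifying enzymes 2, 1 and 1, with 3 modifying enzymes without shMETTL14 replicate 2. With DESeq2 the CTCF list had 3 and with library size alone 16. Within these lists CTSS, the lysosomal protease cathepsin S, had 170 and 146 counts with shControl against 35 and 38 with shMETTL14 (-2.27, SE 0.22, edgeR adjusted p = 1.2e-08).

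With DESeq2, which made fewer calls over all genes (874 lower and 496 higher), these lists also held fewer calls. The lower genes numbered 9 in the TGF-beta list, 6 in the WNT list, 3 in the NOTCH list, 5 in axon guidance, 5 in the plasminogen and coagulation list, 3 in glycolysis, 5 in the cholesterol list, 3 among ATF4 targets and 5 among splicing factors. They numbered 2 in the lysosome list, 2 in the CTCF list, 3 among proteasome subunits, 1 in ribosome biogenesis, 1 among m6A genes and 0 in the respiratory chain. The higher genes numbered 6 among ATF4 targets, 3 in the TGF-beta list, 3 among interferon-stimulated genes, 3 among modifying enzymes, 2 in the lysosome list, 1 each among WNT, m6A, respiratory chain and angiogenic genes, and 0 in ribosome biogenesis, integrins and laminins, hyaluronan metabolism, cytokine receptors and fibroblast growth factor genes. With library size alone the higher genes numbered 9 in the lysosome list, 9 in ribosome biogenesis, 4 in the ER list and 3 in each of the cholesterol and fibroblast growth factor lists, and the lower genes 7 in the WNT list, 4 in the lysosome list, 3 among proteasome subunits and 0 among m6A and respiratory chain genes.

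Several of the largest single changes fell outside these groups or stood out within small families. Among the cyclic nucleotide phosphodiesterases, which end cAMP and cGMP signals, 3 of 15 were lower and 3 higher. PDE7B (hg19 chr6:136172834-136516709) had 143 and 148 counts in control cells, 363 and 304 with shControl and 3808 and 3051 with shMETTL14 (3.19, SE 0.16, edgeR adjusted p = 1.4e-14). PDE3A (hg19 chr12:20522179-20837041) had 224 and 186 with shControl and 10 in each shMETTL14 library (-4.51, SE 0.32, edgeR adjusted p = 3.1e-11). PDE5A had 736 and 1120 against 164 and 381 (-1.91, SE 0.24), and -2.69 without shMETTL14 replicate 2. PDE7B was the highest with shMETTL14 of all groups, and PDE3A and PDE5A the lowest.

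SLIT2, a repellent of growing axons, had 185 and 177 counts in control cells, 32 and 41 with shControl and 313 and 262 with shMETTL14 (2.81, SE 0.20, edgeR adjusted p = 3.1e-11). HOMER1, a synaptic scaffold, had 106 and 103 against 672 and 516 (2.34, SE 0.17). In both genes the shMETTL14 libraries stood above all control and shControl libraries. Among the falls, BPGM, which makes 2,3-bisphosphoglycerate, had 643 and 540 counts against 39 and 110 (-3.14, SE 0.23), the protocadherin gene PCDH18 168 and 221 against 9 and 37 (-3.23, SE 0.28), and GJA1, the gap junction protein connexin 43, 778 and 810 against 88 and 190 (-2.67, SE 0.20). In these 3 genes shMETTL14 replicate 1 was the lower, and without replicate 2 the changes were -4.12, -4.61 and -3.37. Without replicate 1 they were -2.55 for BPGM and -2.51 for PCDH18. The abundant nuclear noncoding RNAs MALAT1 and NEAT1, chosen after their values were seen, were both higher: MALAT1 had 18120 and 19574 counts against 46946 and 38715 (1.02, SE 0.15, edgeR adjusted p = 8.8e-06), and NEAT1 6931 and 7983 against 19614 and 15501 (1.07, SE 0.14, edgeR adjusted p = 2.0e-06).

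Whether METTL14 and METTL3 knockdown gave the same nascent transcription was tested directly, by shMETTL14 against shMETTL3 in the same fit. Of 12752 genes 2462 were lower with shMETTL14 (19.3%) and 2034 higher (16%), and library size alone gave 1648 and 3199, with the median of all genes moved by 0.22. METTL3 had 16 and 19 counts with shMETTL3 against 73 and 56 with shMETTL14 (edgeR adjusted p = 1.8e-05). The shMETTL3 libraries differed from each other more than those of other groups, with a chi-square per degree of freedom of 5.39 against 1.55 to 2.53, and the list counts of this comparison were not recomputed without a library. The knockdowns share the shControl libraries, so their own changes from shControl are not compared as lists. Without shMETTL3 replicate 1 the direct test gave 2880 lower and 2543 higher genes, without shMETTL3 replicate 2 1951 and 1516, without shMETTL14 replicate 1 1377 and 988, and without shMETTL14 replicate 2 2035 and 1621.

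Interleukins and colony-stimulating factors were higher with shMETTL14 than with shMETTL3 in 13 of 16 genes and lower in none, with a median difference of 1.64 and against 16% and 19.3% of all genes. CSF3 had 36 and 17 counts with shMETTL3 and 374 and 296 with shMETTL14 (difference 3.69, SE 0.23, edgeR adjusted p = 1.3e-11), and IL1B 261 and 212 against 459 and 356 (0.82, SE 0.16, edgeR adjusted p = 0.00019). Chemokines were higher in 6 of 10 and lower in 1. CCL20 had 30 and 37 counts with shMETTL3 and 243 and 176 with shMETTL14 (2.68, SE 0.22), and MMP3 179 and 173 against 604 and 505 (1.69, SE 0.15, edgeR adjusted p = 3.8e-09). The chemokine called lower was CXCL5, with 132 and 164 against 37 and 92 (-1.15, SE 0.25, edgeR adjusted p = 0.00058), while CXCL1 (119 and 91 against 131 and 102) and MMP10 (12 and 4 against 8 and 5) were not called.

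NF-kappaB genes were higher with shMETTL14 than with shMETTL3 in 17 of 34 and lower in 3. TNFAIP3 had 124 and 200 counts with shMETTL3, near the shControl level, and 964 and 741 with shMETTL14 (2.43, SE 0.17, edgeR adjusted p = 3.4e-11), and NFKBIA 70 and 32 against 277 and 203 (2.26, SE 0.24). Immediate-early and ERK feedback genes were higher in 23 of 43 and lower in 6, ATF4 targets higher in 18 of 36 and lower in 3, and ribosomal protein genes higher in 53 of 78 and lower in none. EGR1 differed by 2.02 (SE 0.17) and SLC7A5 by 2.54 (SE 0.19). TRAF3, in contrast, was not called (0.07), and SP140 had 190 and 263 counts with shMETTL3 and 190 and 175 with shMETTL14 (-0.27, SE 0.17, edgeR adjusted p = 0.21).

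Among matrix genes, collagens were lower with shMETTL14 than with shMETTL3 in 18 of 28 and higher in 2, and matrix glycoproteins lower in 21 of 53 and higher in 5, with 27 not called. Angiogenic and PDGF genes were lower in 16 of 29 and higher in 3. COL1A2 had 2899 and 2707 counts with shMETTL3 and 700 and 1095 with shMETTL14 (-1.60, SE 0.18, edgeR adjusted p = 8.5e-08). THBS1 had 1601 and 1730 against 292 and 565 (-1.91, SE 0.19), and PDGFRA 1032 and 1030 against 246 and 396 (-1.64, SE 0.17). COL6A1 and COL6A2 were not called (0.05 and -0.06). ER genes were lower in 21 of 55 and higher in 3, with HSPA5 at -0.76 (SE 0.14) and HSP90B1 at -0.89 (SE 0.15). The p53 targets were divided, with 12 of 41 lower and 12 higher: CDKN1A had 762 and 642 counts with shMETTL3 against 1817 and 1498 (1.27, SE 0.14), whereas MDM2 had 1054 and 1441 against 756 and 780 (-0.66, SE 0.14, edgeR adjusted p = 0.00066). Over all genes of over 200 kb the median difference was -0.45, and over those up to 10 kb 0.41, so gene length moved with this comparison more than with that against shControl, where the medians were -0.05 and 0.13. Its part in the list counts of this comparison was not tested. An offset for length gave 2116 lower and 1941 higher genes. It kept 3287 of the 4496 calls against shMETTL3 (73.11%), and 94.41% of the calls against shControl.

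**Figure D4:**
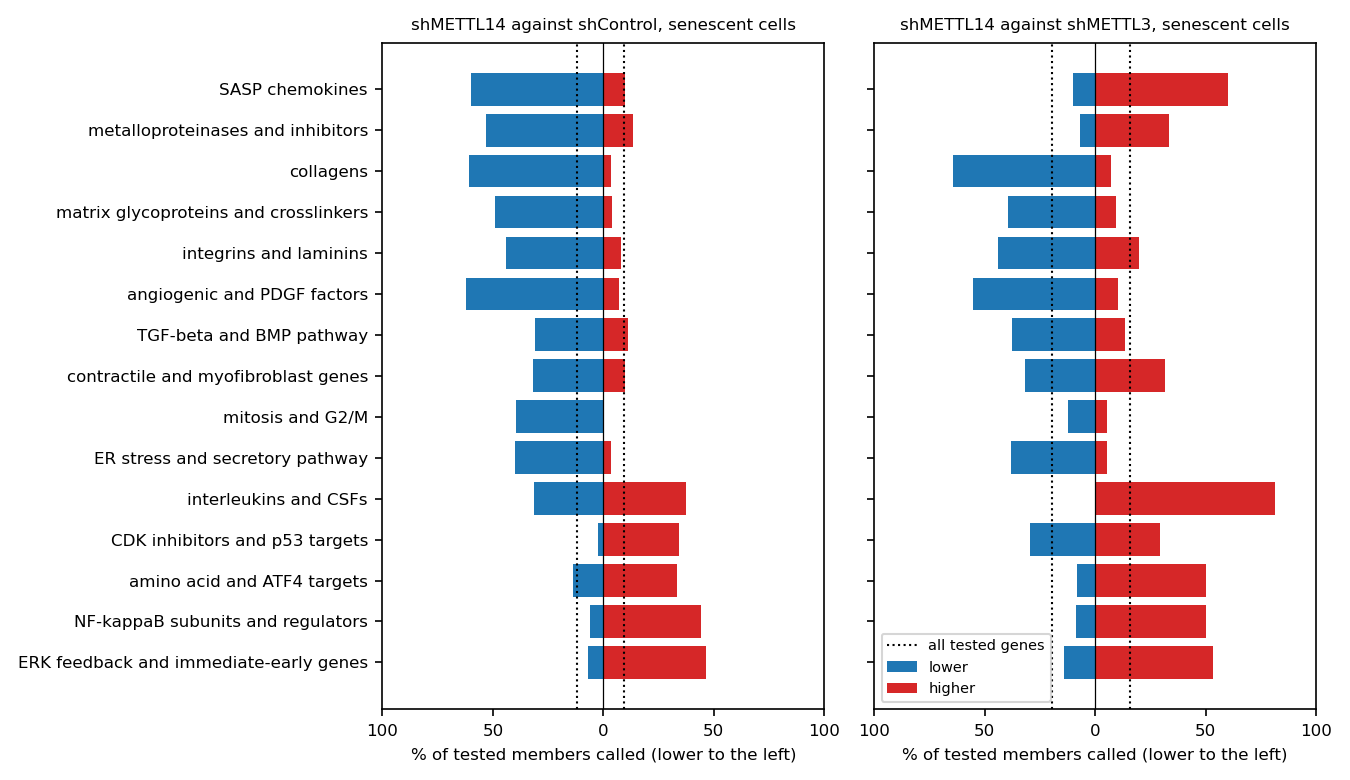
Share of the tested members of 15 gene lists called lower (blue, to the left) or higher (red, to the right) with shMETTL14 against shControl (left panel) and against shMETTL3 (right panel), with dotted lines for the share over all tested genes. Collagens extend to the left in both panels at 17 and 18 of 28, whereas the chemokines extend to the left on the left (6 of 10 lower) and to the right on the right (6 of 10 higher).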

How the data were processed

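Nascent RNA of 8 IMR90 ER:RAS libraries was measured by fastGRO-seq. The authors aligned reads with STAR to hg19 and counted them over gene bodies, introns included, with HOMER; deepTools 3.3 is also named in the submitters' processing notes. The deposited values are raw read counts per gene, 1 column per library. The 21 ribosomal RNA rows, 86.2% to 92.5% of each library, were left out. The remaining counts, between 1513930 and 2048475 per library, set the precision, and the biological coefficient of variation was 10.58%.

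Genes passing edgeR's filterByExpr with a minimum count of 10 were tested with edgeR 4.0.16 (R 4.3.3) by the quasi-likelihood test, with TMM normalization and all 8 libraries in 4 groups in 1 fit. P-values were adjusted over the 12752 genes by Benjamini-Hochberg with a threshold of 0.05. Members and lists were chosen with earlier results of these data known. Genes were named by a rule: METTL14, METTL3 and m6A genes, the 12 largest falls and rises of called genes that averaged 100 counts or more and whose groups did not overlap, and per list up to 6 called genes of highest count in the more frequent direction, up to 3 in the other and up to 2 not called. Genes named outside it (such as IL6, CSF2, RELA and MALAT1) are given as chosen after their values were seen, or stand as overlap partners or motif holders. Alternatives were library size alone, upper-quartile scaling, DESeq2 1.42.0, other count filters, only the libraries compared, a replicate block, gene subsets and each library left out, and, chosen after seeing the data, an offset for gene length. Replicate numbers did not pair the libraries: correlations of the deviations from the group means lay between -0.0479 and 0.0922. The fit was tested on simulated data. Promoter sequences came from RefSeq (GRCh38.p14), and 10221 of the tested genes matched. The values of some single genes are not reported here.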

Additional observations from a re-analysis of the deposited data

How the results depend on the processing

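Among genes called after METTL14 knockdown both in the main fit and under an alternative, none changed direction. The direction of calls that an alternative lost was not compared. The genes lower after METTL14 knockdown (1531) and genes higher after METTL14 knockdown (1172) became 874 and 496 with DESeq2, 944 and 631 at an adjusted p below 0.01, 749 and 514 past 1 in absolute log2 fold change, and between 716 and 1171 lower and between 502 and 813 higher with 1 library left out. With library size alone 56.7% of the calls were higher, against 43.36% with TMM. The genes lower with shMETTL14 than with shMETTL3 (2462) and genes higher with shMETTL14 than with shMETTL3 (2034) became 1606 and 1054 with DESeq2, 1120 and 1057 past 1 in absolute log2 fold change, and between 1377 and 2880 and between 988 and 2543 with 1 library left out. The higher genes numbered 1284 at an adjusted p below 0.01 and 3199 with library size alone, where 66% of the calls were higher against 45.24%. Against shMETTL3, 1 called gene had the opposite sign without shMETTL3 replicate 2. Fewer libraries are used in the fits that leave 1 out, and the cause of the other shifts was not tested. Of 301 called genes named by the rule, 148 were called in every alternative that gave them a value.

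With the replicate number as a block, 1537 genes were lower and 1178 higher after METTL14 knockdown, and 2479 and 2040 against shMETTL3; the numbers did not pair the libraries. An offset for gene length, chosen after seeing the data, gave 1519 and 1314. Limits: 2 libraries per group, 1 hairpin per gene, few counts per library outside ribosomal RNA, overlapping genes that share reads, and no spike-in scale applied to these counts, so a shift in all genes at once is invisible.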
